A study of Nothobranchius furzeri with 20 samples.

Results

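In skin of male turquoise killifish, 150 gene IDs were followed whose level differed far more between libraries at 14 weeks of age than at 5 weeks. They were chosen from 26739 IDs on CPM, the raw count of an ID per 1000000 counts of its library. Candidates had at least 2 CPM in every 5 weeks library, a mean under 2000 CPM, overlapping ranges at 5 and 14 weeks and overlapping ranges at 7 and 10 weeks. These conditions left 9972 IDs. The 150 with the largest SD of log2(CPM + 0.5) at 14 weeks minus that at 5 weeks are the members, and the other 9822 are called the IDs not chosen. The choice thus used the levels and the spread at 5 and 14 weeks and the ranges at 7 and 10 weeks. Every comparison with 14 weeks, and that of 10 with 7 weeks, is therefore a description, and the calls in them are no independent result on the members. Comparisons of 7 and 10 with 5 weeks are not free of the choice either. It set a lowest level at 5 weeks and favoured a small SD there.

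The fish were males of GRZ, an inbred and short-lived laboratory strain, without any treatment named in the labels. RNA-seq libraries were made from total RNA of skin with a TruSeq kit, with 5 libraries at each of 5, 7, 10 and 14 weeks. Whether each library is from its own fish is not in the labels. The p-values therefore reflect how far these libraries differ, which may be technical in part. Library totals ran from 21581757 to 35137022 counts. Genes carry only an ID, and 0 of these IDs were found in the RefSeq gene table used here. What the members encode, their sequences and the skin markers of the libraries were therefore not analysed here.

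Fish skin is a layered tissue of living keratinocytes and mucous cells over a dermis with scales, pigment cells, vessels and nerves, close to the muscle of the body wall. A bulk library averages over all of them. How far individuals of one age differ in expression has been studied as a feature of ageing in several species, beside changes of the mean. In bulk skin, a difference between libraries in the share of a cell type and a difference in the RNA per cell cannot be told apart.

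Before the members are described, 4 of the 20 libraries have to be set apart, because they stood apart in other IDs too. In a principal component analysis of 19141 other IDs, without the members, the first component held 45.6% of the variance. Its scores were 173 for replicate 4 and 139 for replicate 3 of 14 weeks. They were 104 for replicate 4 of 10 weeks and 80.4 for replicate 3 of 7 weeks. The next library, 14 weeks replicate 5, lay at 33.8 and the lowest, 10 weeks replicate 2, at −76.1. Of the 19141 IDs, 1314 had a Pearson's r of at least 0.9 with the mean profile of the members. The component is therefore not independent of the pattern of the members. The labels give no batch, and what sets the 4 libraries apart was not tested. The main results that rest on them are given with and without them.

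The spread at 14 weeks rested on 2 libraries. In 140 of the 150 members both 14 weeks replicate 3 and 14 weeks replicate 4 lay above the other 3 libraries of that age, in 138 of them by at least 1 log2 unit. The median distance between the lower of these 2 libraries and the highest of the other 3 was 3.12 log2 units, with quartiles of 2.70 and 3.84. In 139 members both stood above all other 18 libraries of the series. In none of the members were both below the other 3. Among the IDs not chosen, 39.8% also had both libraries on top of the 14 weeks group. A level at least 8-fold above the 5 weeks mean in both libraries was found in 97 of the 150 members and in 0.132% of the IDs not chosen, a contrast that the choice of members favours.

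**Figure D1:**
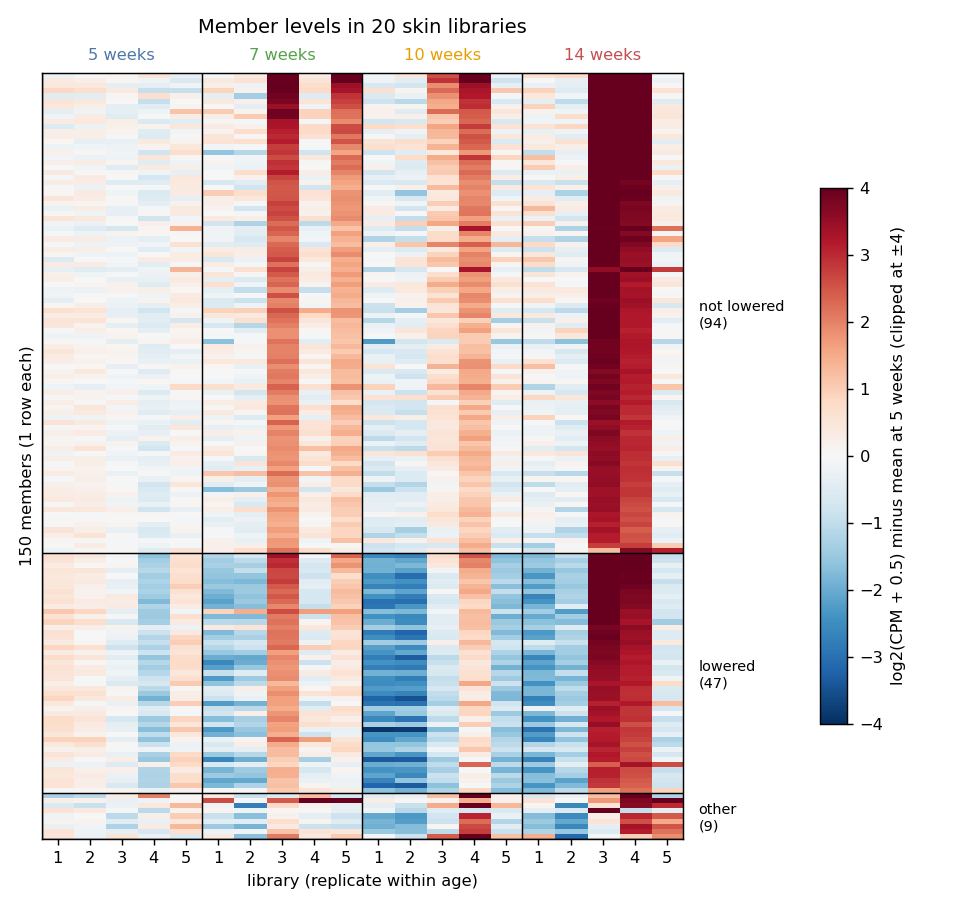
Each row is 1 of 150 members and each column 1 of 20 skin libraries (replicates 1 to 5 within each age). Colour gives log2(CPM + 0.5) minus the member's mean at 5 weeks, clipped at ±4. Rows are split into 94 and 47 members of the largest co-varying group, without and with a level more than 1 log2 unit under the 5 weeks mean in both 10 weeks replicates 1 and 2, and 9 other members, each block ordered by its level in 14 weeks replicates 3 and 4. Both of these columns are high in nearly every row, and 7 weeks replicate 3, 7 weeks replicate 5 and 10 weeks replicate 4 are high to a lesser degree.

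Summed over the members, the level was 28827 CPM in 14 weeks replicate 3 and 19929 CPM in replicate 4, or 2.88% and 1.99% of all counts. It was 1307, 1092 and 2226 CPM in 14 weeks replicates 1, 2 and 5. The 5 weeks libraries ran from 1227 to 2044 CPM, so replicate 1 lay within their range, replicate 2 under it and replicate 5 above it, all far from replicates 3 and 4. At 7 weeks the sums were 1568, 1523, 8084, 2091 and 4232 CPM in replicates 1 to 5, and at 10 weeks 988, 952, 2338, 7228 and 1340 CPM. The highest library at each of these ages was 1 of the 4 set apart above. In 10 weeks replicate 4, a single ID, Nfu_g_1_011292, held 1428 of the 7228 CPM.

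Member by member, the median level against the 5 weeks mean was 3.84 log2 units higher in 14 weeks replicate 3 (quartiles 3.44 and 4.33) and 3.23 higher in replicate 4 (quartiles 2.93 and 3.77). In 14 weeks replicates 1, 2 and 5 it was −0.28, −0.46 and −0.08. The IDs not chosen had medians of 0.29 in replicate 3 and 0.39 in replicate 4, so the libraries were shifted as a whole by a small part of this distance. For these levels the scaling matters at that size only. TMM factors set libraries to a common level of most genes. They would move log2 levels by −0.32 in replicate 3, by −0.39 in replicate 4 and by −0.39 to 0.43 over the 20 libraries. The spread also changes with them. The median SD of the members was 2.06 with TMM factors and 2.28 without at 14 weeks, and 0.80 and 1.02 at 10 weeks.

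**Figure D2:**
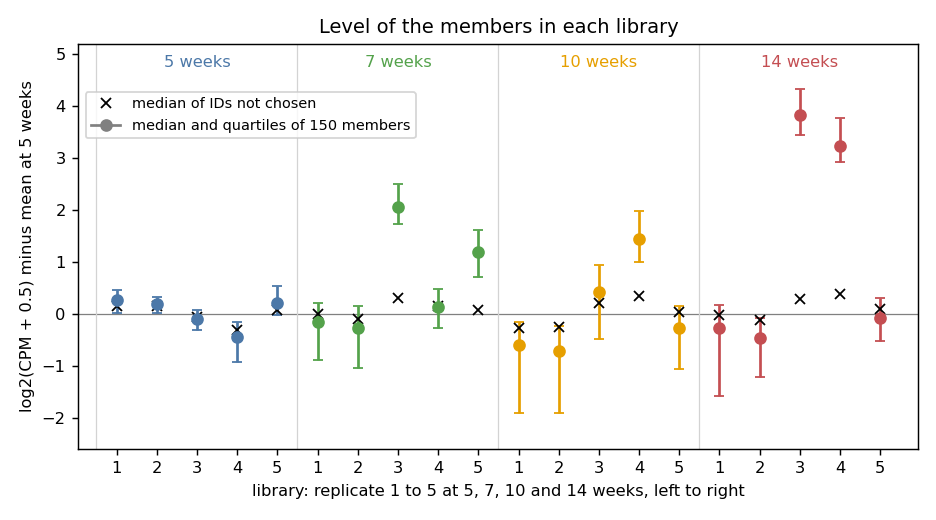
Points give the median and bars the quartiles over 150 members of log2(CPM + 0.5) minus the 5 weeks mean, in each of the 20 libraries, and crosses the median of the 9822 IDs not chosen. The members stand at 3.84 and 3.23 in 14 weeks replicates 3 and 4 and at 2.05 in 7 weeks replicate 3, while the crosses stay between −0.31 and 0.39.

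The SD of log2(CPM + 0.5) over the 5 libraries of an age had a median over members of 0.391 at 5 weeks (quartiles 0.279 and 0.719) and 2.28 at 14 weeks (quartiles 1.98 and 2.64). These values chose the members and are given as a description. In the IDs not chosen the medians were 0.341 and 0.521. With the smallest count of any member at 5 in any library, counting error accounted for a median SD of 0.105 at 5 weeks and 0.101 at 14 weeks. Without 14 weeks replicates 3 and 4, the median SD of the members over the remaining 3 libraries was 0.489 (quartiles 0.259 and 0.769). In the IDs not chosen it was 0.353. A larger SD there than at 5 weeks was found in 76 of 150 members and in 5193 of the 9822 IDs not chosen, a similar share. The 5 weeks median was itself 0.291 without replicate 4, the library in which 101 members had their lowest 5 weeks level, against 58.4% of the IDs not chosen.

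At the edge of the choice, the member ranked 150, Nfu_g_1_003883, had an SD difference of 1.4648 and the next in rank, Nfu_g_1_016241, one of 1.4645. The largest difference was 3.60, the median of the members 1.73, and 41 members exceeded 2. Over the 9972 IDs that met the conditions, the SD was larger at 14 than at 5 weeks in 74.2%, and the IDs not chosen had a median difference of 0.166.

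The ages of 7 and 10 weeks were not used for the SD, and there too the members were spread. The median SD was 1.12 at 7 weeks (quartiles 0.852 and 1.42) and 1.02 at 10 weeks (quartiles 0.802 and 1.404), against 0.309 and 0.415 in the IDs not chosen. At 7 weeks 142 and at 10 weeks 107 of the 150 members exceeded the SD below which 90% of the IDs not chosen lay, 0.639 and 0.824. Single libraries carried part of this. Without 7 weeks replicate 3 the median at 7 weeks was 0.796, and without 10 weeks replicate 4 the median at 10 weeks was 0.614, against 0.271 and 0.351 in the IDs not chosen.

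**Figure D3:**
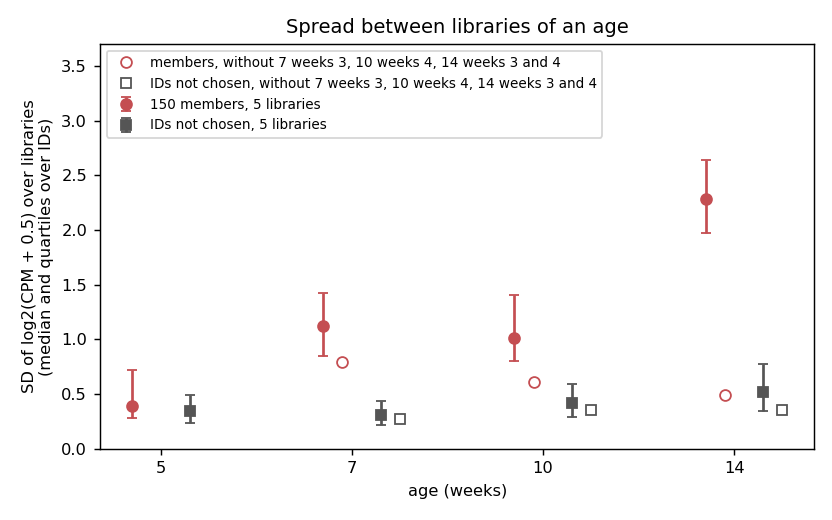
The SD of log2(CPM + 0.5) over the libraries of an age is plotted against age in weeks, as the median (points) and quartiles (bars) over 150 members and 9822 IDs not chosen. Open symbols leave out 7 weeks replicate 3, 10 weeks replicate 4 or 14 weeks replicates 3 and 4 at their own age. The members rise to 2.28 at 14 weeks with all 5 libraries and stand at 0.489 with the remaining 3.

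The direction at 7 and 10 weeks was the same as at 14 weeks. The member's highest 7 weeks library was replicate 3 in 147 of 150 members, and the highest 10 weeks library was replicate 4 in 149. The IDs not chosen had their highest level in these libraries in 47.7% and 50.8%. The members' median against the 5 weeks mean was 2.05 log2 units in 7 weeks replicate 3 and 1.45 in 10 weeks replicate 4. Second came 7 weeks replicate 5 in 130 members, at a median of 1.19, and 10 weeks replicate 3 in 140, at 0.41. The other 3 libraries at 7 weeks had medians between −0.28 and 0.12, and the other 3 at 10 weeks between −0.71 and −0.28. In 137 members 7 weeks replicate 3 was above 10 weeks replicate 4.

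Whether the spread differed between 10 and 7 weeks was tested with limma on the absolute deviations from the age mean, over 19192 IDs. The choice used neither of these SDs, but it required overlapping ranges at the 2 ages, which bears on the spread. Only 9972 IDs met all conditions of the choice, so the share over all tested IDs is from a wider set. No member was called at an adjusted p under 0.05, in a comparison in which 0% of all IDs were called. Unadjusted, 9 members and 1333 of all IDs had a p under 0.05 in limma, and no other tool was run for this. These counts depended on the setting. They were 30 and 1430 with TMM factors, and 0 and 84 with deviations from the median. On leaving out 1 library the members ran from 1 without 7 weeks replicate 5 to 44 without 10 weeks replicate 4. In those fits 1036 and 1550 of all IDs had such a p. The SD was larger at 10 weeks in 46 members, against 63.2% of all tested IDs. That count was 113 without 7 weeks replicate 3, 8 without 10 weeks replicate 4 and 41 without both, against 70.2%, 51.2% and 58.9% of all tested IDs. Leaving out 10 weeks replicate 3 or 5 also moved the count by more than 1.5 times, to 73 and 79, against 63.9% and 67.3% of all tested IDs.

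The member with the largest growth of the SD was Nfu_g_1_018671. Its level was 5.41, 5.01, 4.35, 3.62 and 2.57 CPM in the 5 libraries of 5 weeks. At 14 weeks it was 4.11, 3.14, 838, 438 and 3.38 CPM in replicates 1 to 5. Replicates 3 and 4 were thus far above all 5 weeks libraries, while the other 3 lay within their range. At 7 weeks it was 5.49, 6.34, 192, 6.09 and 88.8 CPM and at 10 weeks 3.63, 2.94, 33.2, 114 and 2.06 CPM, so each of these ages had 2 high libraries and 3 between 2.06 and 6.34 CPM, close to the 5 weeks range. The SD of its log2 level was 0.377 at 5, 2.41 at 7, 2.41 at 10 and 3.98 at 14 weeks (n = 5 each).

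Nfu_g_1_019295 came second and had the same high libraries. It lay between 3.64 and 6.69 CPM at 5 weeks and at 7.27, 8.17, 1179, 728 and 4.40 CPM in 14 weeks replicates 1 to 5. At 7 weeks replicates 3 and 5 had 285 and 97.4 CPM and the others 4.36 to 6.03 CPM. At 10 weeks replicates 4 and 3 had 129.8 and 29.4 CPM and the others 3.75 to 6.48 CPM. Its mean of 4.73 ± 1.21 CPM at 5 weeks and of 385 ± 543 CPM at 14 weeks (SD, n = 5 each) shows that no single mean describes the oldest group.

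In 15 members the 14 weeks library farthest from the mean of the other 4 lay below it, in place of above. The 2 of these with the largest growth of the SD were Nfu_g_1_006750 and Nfu_g_1_017753. Nfu_g_1_006750 had 2.54, 1.98, 92.4, 84.8 and 16.7 CPM in 14 weeks replicates 1 to 5, after 3.89 to 6.75 CPM at 5 weeks. Nfu_g_1_017753 had 0.473, 1.34, 49.5, 47.0 and 8.16 CPM at 14 weeks, after 2.80 to 10.2 CPM at 5 weeks. Both were high in replicates 3 and 4 like the other members, with 2 libraries under the 5 weeks range. Both also had 10 weeks replicates 1 and 2 under the 5 weeks range, at 1.98 and 2.49 CPM for Nfu_g_1_006750 and at 0.412 and 0.455 CPM for Nfu_g_1_017753.

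The ID nearest to the common pattern, by its mean Pearson's r with the group described next, was the last member, Nfu_g_1_003883. Its level was 11.7, 12.7, 12.1, 8.67 and 11.6 CPM at 5 weeks and 10.2, 9.14, 102, 76.5 and 11.9 CPM at 14 weeks. At 7 weeks it was 9.08, 8.38, 30.8, 12.2 and 23.4 CPM and at 10 weeks 7.82, 8.58, 14.6, 25.54 and 11.1 CPM. The ID just outside the choice, Nfu_g_1_016241, had 4.82, 0.877, 5.57, 52.2 and 27.9 CPM at 14 weeks. It was high in replicates 4 and 5 and not in replicate 3, after 5.66 to 17.6 CPM at 5 weeks.

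**Figure D4:**
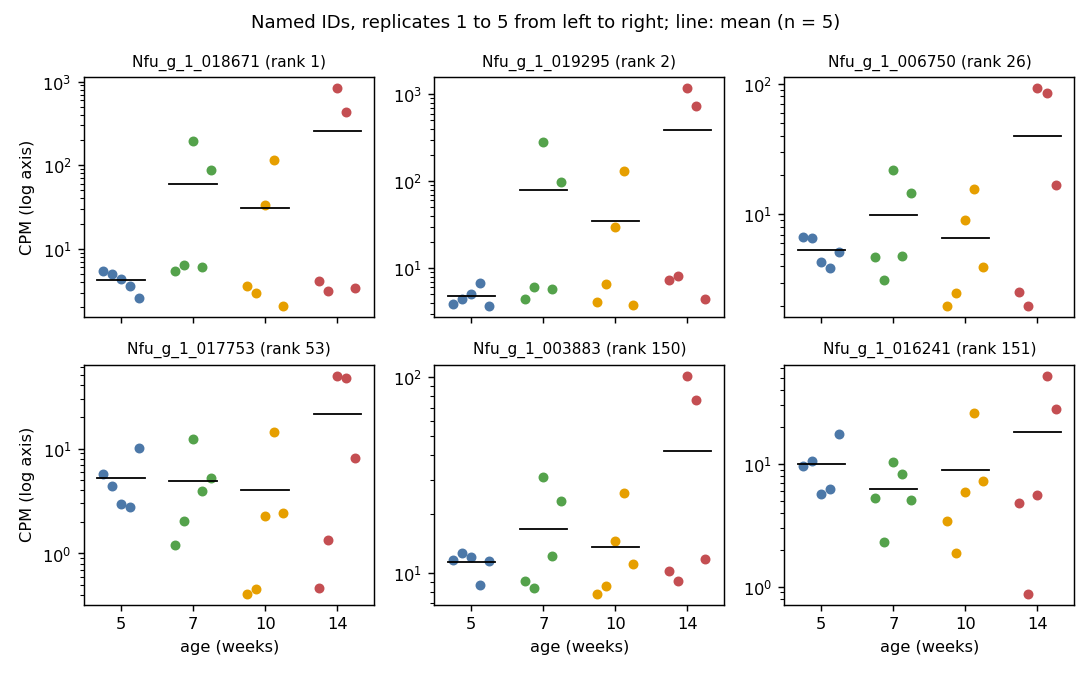
CPM on a log axis is plotted against age in weeks for the 5 named members and the first ID not chosen, with replicates 1 to 5 from left to right as points and the mean of 5 as a line. In the 5 members 14 weeks replicates 3 and 4 are the highest of the 20 libraries, and in Nfu_g_1_016241 replicate 3 stays at 5.57 CPM.

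The members varied together. Average linkage on 1 minus Pearson's r over the 20 libraries, at a height of 0.3, put 141 of them in 1 group, and no other group held more than 5. The median r between pairs of members was 0.89 over the 20 libraries and 0.88 over the 10 libraries of 7 and 10 weeks. Between pairs of IDs not chosen it was 0.17 and 0.23. High libraries alone raise such an r, and the choice favours members that share them. Without the 4 libraries set apart, the median r over 16 libraries was 0.54 in the members and 0.16 in the IDs not chosen.

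The size of the deviation was also compared over members. Each of the 4 libraries set apart was compared with the mean of the 3 libraries of its age that scored lowest on the first component, which were replicates 1, 2 and 5 at 14 weeks, 1, 2 and 4 at 7 weeks and 1, 2 and 5 at 10 weeks. The median deviation was 4.26 log2 units in 14 weeks replicate 3, 3.66 in 14 weeks replicate 4, 2.22 in 7 weeks replicate 3 and 2.21 in 10 weeks replicate 4. Across members, the deviation in 14 weeks replicate 3 had a Pearson's r of 0.69 and a Spearman's rho of 0.69 with that in 7 weeks replicate 3. With 10 weeks replicate 4 they were 0.16 and 0.51, and 0.69 and 0.73 over the group of 141. For 14 weeks replicate 4 they were 0.65 and 0.65 with 7 weeks replicate 3, and 0.78 and 0.70 over the group of 141. With 10 weeks replicate 4 this library had 0.72 and 0.76, and 0.85 and 0.83 over the group of 141. Between 7 weeks replicate 3 and 10 weeks replicate 4, the pair outside 14 weeks, r and rho were 0.36 and 0.43. Over the group of 141 they were 0.66 and 0.56. Between 14 weeks replicates 3 and 4 themselves, r and rho were 0.67 and 0.86, and 0.92 and 0.95 over the group of 141. Genes are not independent replicates and these values are a description. The levels at 14 weeks also chose the members. The 51 members described below were low in several of the libraries compared against at 7, 10 and 14 weeks. A shared low reference alone raises such an r, and how far it did so was not tested. Replicate 3 exceeded replicate 4 of 14 weeks in 136 members, by a median of 0.61 log2 units (quartiles 0.43 and 0.76).

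**Figure D5:**
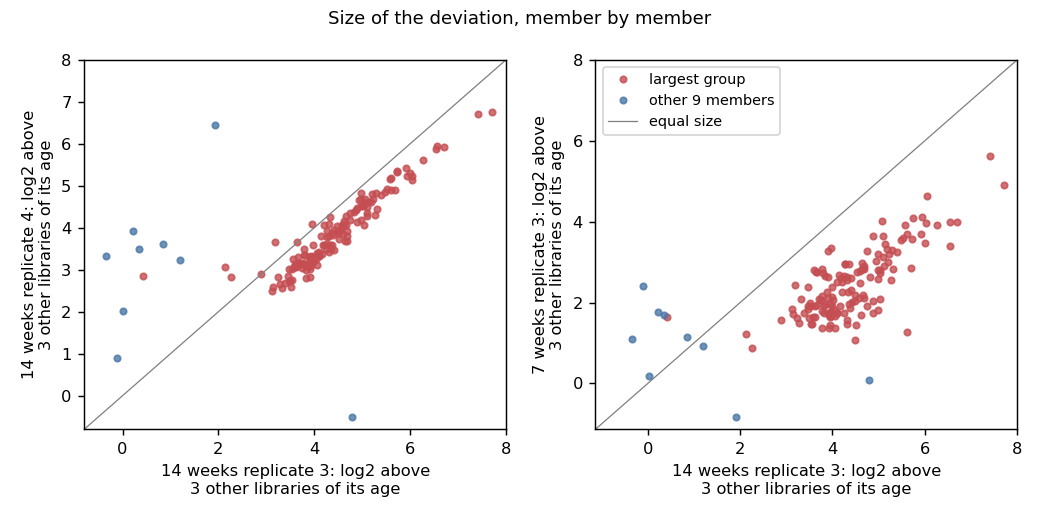
Each point is 1 member, with its log2 distance from the mean of 3 other libraries of the same age in 14 weeks replicate 3 (x axes) and in 14 weeks replicate 4 or 7 weeks replicate 3 (y axes). The line marks equal size. Most points of the group of 141 lie along a band under the line, with medians over all members of 4.26, 3.66 and 2.22, and most of the other 9 lie to the left of the band.

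Members differed from each other in the libraries that were not high. In 51 of the 150, a number set by a limit chosen after the values were seen, 10 weeks replicates 1 and 2 were both more than 1 log2 unit under the 5 weeks mean. Their medians in these libraries were −2.35 and −2.33, against −0.30 and −0.38 in the other 99 members. The IDs not chosen had medians of −0.27 and −0.26 there, and TMM factors would move these libraries by 0.34 and 0.37. The same 51 members were low in some other libraries, with 48 of them more than 1 log2 unit under the 5 weeks mean in 14 weeks replicate 1, 39 in 14 weeks replicate 2 and 35 in 5 weeks replicate 4. In these libraries the IDs not chosen had medians of −0.03, −0.12 and −0.31. In 14 weeks replicate 5 only 3 of the 51 were that low, and in 7 weeks replicate 4 the median of the 51 was −0.25. The 51 reached 3.49 and 3.15 in 14 weeks replicates 3 and 4, and the other 99 reached 3.97 and 3.31. Over 14 weeks replicates 1, 2 and 5 the median SD was 0.772 in the 51 and 0.315 in the other 99. At 5 weeks it was already 0.776 and 0.313, so without replicates 3 and 4 neither class had a clearly larger median SD at 14 weeks. In 62 members all 14 libraries other than the 4 set apart, 7 weeks replicate 5 and 10 weeks replicate 3 lay within 1 log2 unit of the 5 weeks mean. This is 41.3% of the members, a lower share than the 65.6% of the IDs not chosen.

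The other 9 members stood outside that group and are named here after their values were seen. A group of 5, Nfu_g_1_005162, Nfu_g_1_009500, Nfu_g_1_009505, Nfu_g_1_014353 and Nfu_g_1_020637, was high in 10 weeks replicate 4 and in 14 weeks replicates 4 and 5. Its median level was 155 CPM in the first, 199 and 102 CPM in the latter 2 and 23.0 CPM in 14 weeks replicate 3. At 5 weeks its median ran from 12.0 to 35.7 CPM. The remaining 4 each had a profile of their own. Nfu_g_1_011292 had 1428 CPM in replicate 4 of 10 weeks and 785 CPM in replicate 4 of 14 weeks, and lay between 5.55 and 59.0 CPM elsewhere. Nfu_g_1_017321 was high in 14 weeks replicate 3 alone, at 554 CPM, and lay between 12.2 and 40.9 CPM in the other 19 libraries. Nfu_g_1_003876 was highest in 10 weeks replicate 4, at 308 CPM, and its lowest library was 14 weeks replicate 2, at 1.75 CPM.

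The last of these, Nfu_g_1_004543, was the only member called between 7 and 5 weeks in edgeR's quasi-likelihood test over 19192 IDs, where 1.38% of all IDs were called. Its level was 4.04, 3.92, 2.72, 3.03 and 3.64 CPM at 5 weeks and 23.5, 3.35, 21.1, 72.5 and 83.2 CPM at 7 weeks. One 7 weeks library, replicate 2, stayed in the 5 weeks range. The log2 fold change was 3.39 (SE 0.81; adjusted p = 0.0441, edgeR). It was between 3.61 and 9.95 CPM at 10 weeks and at 5.44, 3.37, 12.7, 51.9 and 94.7 CPM at 14 weeks. The call was lost on leaving out any library of 5 or 7 weeks, 10 weeks replicates 1, 2, 3 or 5, or 14 weeks replicate 4. The SD of this member at 5 weeks was 0.215, and the choice favours a small one, so the call is no independent result. Over all members the median log2 fold change at 7 weeks was 0.66, against 0.01 for all IDs. It was 0.22 without 7 weeks replicate 3 and 0.23 without the 4 libraries set apart. An unadjusted p under 0.05 was found in 9 members, or 6%, under the 17.4% of all IDs. DESeq2 called 2 members and 6.03% of all IDs, and limma voom 2 members and 5.75%. Without 14 weeks replicates 3 and 4 edgeR called 3, or 2%, and 4.00% of all IDs.

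Between 14 and 7 weeks edgeR called 1 member, Nfu_g_1_015518, where 17.5% of all IDs were called. Its level was 14.6, 11.2, 52.8, 10.7 and 31.3 CPM at 7 weeks and 26.2, 20.0, 206, 121 and 15.3 CPM at 14 weeks, so the groups overlapped. The log2 fold change was 1.55. The choice used the levels and spread at 14 weeks, so the calls in this comparison are a description. An unadjusted p under 0.05 was found in 54 members, or 36.0%, and in 34.1% of all IDs. The sign of this comparison over the members depended on 2 libraries. The median log2 fold change was 1.45 with all libraries and −1.07 without 14 weeks replicates 3 and 4, where 19 members were called and all 19 were lower at 14 weeks. They are 12.7% of the members, under the 20.4% of all IDs called in that fit. That fit kept the high 7 weeks replicate 3. Without the 4 libraries set apart the median was −0.60. Leaving out only 1 library, the count was 12 without 7 weeks replicate 3 and 11, 20 and 13 without 14 weeks replicates 1, 2 and 5. Each of these calls was higher at 14 weeks. They are 8%, 7.33%, 13.3% and 8.67% of the members, under the 17.2%, 17.2%, 19.7% and 15.6% of all IDs called in those fits. The count was 1 without 10 weeks replicate 4 or 14 weeks replicate 4 and 0 without any of the other 14 libraries. DESeq2 called 20 members, all higher, and 24.6% of all IDs, and limma voom called 1, lower, and 14.1%.

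No member was called between 10 and 5 weeks in edgeR, where 6.61% of all IDs were, with 6 members, or 4%, at an unadjusted p under 0.05, under the 25.2% of all IDs. DESeq2 called 1 member and 13.4% of all IDs. Limma voom with quality weights called 27 members, of which 25 were lower at 10 weeks, and 33.6% of all IDs. The median log2 fold change of the members was 0.18, and −0.17 without the 4 libraries set apart, where edgeR called 1 member higher and 27 lower, or 18.7% of the members, and 13.9% of all IDs. Without 10 weeks replicate 4 alone edgeR called 1 lower, and 4.92% of all IDs.

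Between 14 and 10 weeks no member was called in edgeR, where 0% of all IDs were. The median log2 fold change was 2.12, against 0.08 for all IDs, and 136 members, or 90.7%, had an unadjusted p under 0.05, against 18.7% of all IDs. A high mean at 14 weeks comes with the choice of the members, so nothing is read from these values. DESeq2 called 27 members higher at 14 weeks and 1.41% of all IDs, and limma voom 0 members and 0%. Without 14 weeks replicate 1 edgeR called 14 higher and 2.65% of all IDs. Without 14 weeks replicates 3 and 4 the median was −0.40 and 5 members, or 3.33%, had an unadjusted p under 0.05, against 3.66% of all IDs. That fit kept the high 10 weeks replicate 4. Without the 4 libraries set apart the median was −0.03. All these contrasts assume 1 dispersion per gene at every age, while the members were chosen for unequal spread, and the median quasi-likelihood dispersion of the members was 3.05 against 0.425 for all IDs. In the 14 against 5 and the 10 against 7 weeks contrasts, in which the choice also set the overlap of the ranges, edgeR called 0 and 1 members, where 0.0104% and 23.1% of all IDs were called, and nothing is read from them. For the first, 113 members, or 75.3%, and 23.5% of all IDs had an unadjusted p under 0.05, DESeq2 called 92 and 11.7% of all IDs, and limma voom 0 and 0%. Without 14 weeks replicate 1, 2 or 5 edgeR called 85, 87 and 74 there, and 7.72%, 11.03% and 6.63% of all IDs. For the second, the only call, Nfu_g_1_004543, was lower at 10 weeks, with a log2 fold change of −2.91. DESeq2 called 3 members and 27.6% of all IDs there, and limma voom 18 and 37.5%. The edgeR count was 4 without 10 weeks replicate 4 and 2 without 14 weeks replicate 4, where 22.5% and 24.4% of all IDs were called.

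Per length, the members were of low abundance in the libraries that were not high. Their median at 5 weeks was 2.64 CPM per kilobase (quartiles 1.45 and 4.74), against 6.38 in the IDs not chosen (quartiles 3.20 and 13.9). The choice used levels and spread at 5 weeks, so this difference is a description. In 14 weeks replicates 3 and 4 the median of the members was 36.1 and 27.1 CPM per kilobase, and in replicates 1, 2 and 5 it was 1.53, 1.51 and 2.37. The median length was 3632 bases in the members and 3031 bases in the IDs not chosen, with overlapping quartiles of 2161 to 5449 and 1566 to 5150 bases.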

How the data were processed

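The authors deposited raw counts per gene ID and RPKM values. The submitters' processing notes list featureCounts 1.4.6-p4, STAR 2.4.1d and CASAVA 1.8.2 with no parameters. Build, annotation and strand setting: not given in the sources used here. Counts of genes that overlap, lie antisense or have a near-identical copy are uncertain. Libraries were grouped by the labelled age and numbered in accession order, so numbers pair no libraries. Members, lists and limits were chosen with earlier results of these data known.

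IDs were filtered with filterByExpr, which kept 19192 and all 150 members. Levels were tested with edgeR 4.0.16 in R 4.3.3 (TMM, glmQLFit and glmQLFTest on 4 age means of 20 libraries, 16 residual degrees of freedom), spread with limma 3.58.1 on absolute deviations of log2(CPM + 0.5), both with Benjamini-Hochberg adjustment over all IDs at 0.05. DESeq2 1.42.0 and limma voom were alternatives. The edgeR level test and the limma spread test were tested on simulated data. The spread test recovered only a minority of the changed IDs there, so its calls say little about IDs not called.

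Named IDs are the 2 members with the largest SD difference whose farthest 14 weeks library lies above and the 2 below the others, the ID nearest to its group, ranks 150 and 151, and members called in a contrast. The deposited RPKM values used a repeating series of 25 depths, of which 4.00% of values got their own. They served as 1 alternative and, with the depth undone, gave gene lengths. Of 2311 short lengths, 88.4% were multiples of 3, so these short lengths are largely coding. Longer lengths, such as the medians given above, were not checked in this way. Whether they include non-coding parts was not tested. No pair of libraries of 1 age agreed within counting noise (lowest chi-square over its degrees of freedom 57.5).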

Additional observations from a re-analysis of the deposited data

Results flagged for a closer look

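The distance of the highest or lowest library from its neighbour, divided by the range of its age, was compared with Dixon's critical value of 0.71 for 5 libraries. This was done for the summed and median level of the members and for the 6 IDs named by the rule, at 4 ages, 32 comparisons in all. The value of 8.67 CPM of Nfu_g_1_003883 in 5 weeks replicate 4 was the only 1 past it, lower than 11.6 to 12.7 CPM in the other 4 libraries. Chance passes about 1 in 20 such groups. At 14 weeks, where 2 libraries were high together, 1 of the 150 members passed, and at 5, 7 and 10 weeks 15, 2 and 9 did.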

How the results depend on the processing

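No paired analysis was possible because replicate numbers were given in accession order and pair no libraries. Alternatives that leave out 2 or 4 libraries together were chosen after the data were seen. Members called between 7 and 5 weeks numbered 1, and 0 without a filter on low counts, where 0.801% of all IDs were called. They numbered 3, or 2%, with only 2 ages fitted, against 1.86% of all IDs. In limma voom and in DESeq2 they were 2, against 5.75% and 6.03% of all IDs. Without 14 weeks replicates 3 and 4 or without the 4 libraries set apart they were 3, against 4.00% and 2.54%. Leaving out single libraries gave 0 to 1, and 0.098% to 1.66% of all IDs. Between 10 and 5 weeks the count of 0 became 9, or 6%, with 2 ages fitted, against 8.95% of all IDs. It was 27, or 18%, in limma voom and 1 in DESeq2, against 33.6% and 13.4% of all IDs. Without the 2 or the 4 libraries it was 1 and 28, or 0.667% and 18.7%, against 13.1% and 13.9%. Single libraries left out gave 0 to 1, and 0.418% to 10.6% of all IDs. Between 14 and 7 weeks the count of 1 became 0 with upper-quartile factors, without the filter and with 2 ages fitted. The shares of all IDs there were 17.2%, 13.5% and 10.8%. In DESeq2 the count was 20, or 13.3%, against 24.6% of all IDs. Without the 2 or the 4 libraries it was 19 and 16, all lower, or 12.7% and 10.7%, against 20.4% and 19.7%. Single libraries left out gave 0 to 20, and 9.39% to 19.7% of all IDs. Between 14 and 10 weeks DESeq2 called 27 against 0, or 18%, against 1.41% of all IDs. Single libraries left out gave 0 to 14, and 0% to 2.65% of all IDs. Between 14 and 5 weeks DESeq2 called 92 against 0, or 61.3%, against 11.7% of all IDs. Single libraries left out gave 0 to 87, and 0% to 11.03% of all IDs. The choice of members bears on every comparison with 14 weeks, that with 7 weeks included, so nothing is read from these counts. Between 10 and 7 weeks the count of 1 became 6, or 4%, with 2 ages fitted, against 30.5% of all IDs. It was 18 in limma voom and 3 in DESeq2, or 12% and 2%, against 37.5% and 27.6%. Without the 2 or the 4 libraries it was 13 and 28, or 8.67% and 18.7%, against 29.3% and 28.6%. Single libraries left out gave 1 to 4, and 16.6% to 24.8% of all IDs. The cause of these changes was not tested.

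The number of members with the larger SD at 10 than at 7 weeks was 8 to 113 on leaving out single libraries, against 51.2% to 70.2% of all tested IDs. Members called for spread stayed at 0. The median SD at 5 weeks was 0.318 with a pseudocount of 2 and 0.291 to 0.431 without single libraries. At 7 weeks it was 0.824 as a scaled median absolute deviation and 0.796 to 1.27 without single libraries, and at 10 weeks 0.614 to 1.15. At 14 weeks it was 2.06 with TMM factors, 2.06 with a pseudocount of 2, 1.395 as a scaled median absolute deviation, 0.489 without replicates 3 and 4 and 1.98 to 2.45 without single libraries. Repeating the choice kept 126 of the 150 members with TMM factors, 48 with the ratio of SDs, 37 with the median absolute deviation, 58 on the deposited RPKM values, 14 without 14 weeks replicates 3 and 4 and 93 to 141 without single libraries, with 93 without 14 weeks replicate 3 and 97 without 5 weeks replicate 4. The largest co-varying group held 82 members, with 2 groups of at least 10, over the libraries of 5, 7 and 10 weeks, 74 with 2 groups without 14 weeks replicates 3 and 4, and 47 with 3 groups without the 4 libraries. It held 135 to 145 without single 14 weeks libraries, with 1 to 2 such groups. Changes between levels of the order of counting error are not detectable at this depth.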

Other observations

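Other IDs were high in the same libraries as the members. Over the 20 libraries, 1314 of the 19141 other IDs with at least 10 counts in 5 libraries had a Pearson's r of at least 0.9 with the mean profile of the members, and 119 of the 150 members did. None had an r of −0.9 or lower. Over the 10 libraries of 7 and 10 weeks, 955 other IDs and 106 members had an r of at least 0.9. Of the 1314 IDs, 818 were under 2 CPM in a 5 weeks library, 480 met the conditions with a smaller SD difference, 10 had separate ranges at 5 and 14 weeks and 6 had separate ranges at 7 and 10 weeks. A few high libraries shape this r. Without the 4 libraries set apart, a comparison added with the results known, 41 other IDs and 14 members had an r of at least 0.9 over 16 libraries. The median r there was 0.69 in the 1314 IDs and 0.76 in the members. The profile was made from the members, so their r and that of other IDs are no like comparison.

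A list of on/off genes was made of the 484 IDs with a second-highest level past 10 CPM that was also more than 5 log2 units over their sixth-lowest. Of these, 22 were members, 4.55% of that list and 14.7% of the members. The list and the choice of members both favour IDs with a few high libraries, so nothing is read from this overlap. Of the 22, 21 lay in a co-varying set of 259 such IDs and 1 in a set of 33, while a set of 188 held 0 members.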
